A study of Homo sapiens with 4 samples.

Results

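The SLC25 carriers and uncoupling proteins are a family of transport proteins, most of them in the inner mitochondrial membrane. Their transcripts were followed here in H1299 cells before and after induction of p53. Members were all genes whose symbol in the platform annotation begins SLC25A followed by a digit, or is UCP followed by a single digit, each read at the brightest probe set that the annotation assigns to that symbol alone. This gave 52 members of 18417 genes in all, 49 of them protein-coding, with 2 transcribed pseudogenes (SLC25A51P1 and SLC25A51P4) and the antisense transcript SLC25A5-AS1. SLC25A6 was not analysed here.

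The induced group held 2 arrays of a stable tet-on line of H1299, an established human line of lung carcinoma with no p53 of its own, after 24 hours in 0.5 µg/mL doxycycline, which switches on a wild-type mouse p53 construct. The uninduced group held 2 arrays of the same line before induction, and both groups were grown in DMEM with tet-free serum. The labels call the arrays of a group technical replicates, do not say whether they share a culture and do not say whether the line is a clone, so the p-values below measure only the spread between arrays, which may be technical. No cells without the construct received the drug, so an effect of doxycycline and an effect of p53 cannot be told apart. Values are log2 expression levels as the authors deposited them, and precision is limited by how few arrays there were.

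SLC25 proteins carry nucleotides, phosphate, carboxylates, amino acids, cofactors and metal ions across a membrane that is otherwise closed to them. They share a fold built from repeated pairs of membrane helices, and most are made in the cytosol and inserted by the TIM22 machinery. The uncoupling proteins belong to the same family, and UCP1 is known for letting protons leak in brown fat. Several substrates are served by more than a single carrier, and such near relatives are compared below.

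The array data as a whole set the frame for these values. CDKN1A and MDM2, which p53 is known to switch on, had levels of 12.50 to 12.76 log2 units on the induced arrays, against 9.11 to 9.85 on the uninduced arrays. The line markers KRT18 and VIM were bright on all 4 arrays, at 10.98 to 12.75, whereas EPCAM lay at 5.39 to 5.61 and KRT19 at 6.62 to 6.89. Another line marker, KRT8, had 10.45 and 10.81 when induced and 9.41 and 9.56 when uninduced, and rose 2.21-fold (adjusted p = 0.000241 in limma's test), whereas VIM fell by 0.40 on the log2 scale (adjusted p = 0.00556). Of 8 markers of differentiated lung epithelium 2 rose: SCGB1A1, with 8.53 on both induced arrays against 6.59 and 6.41 on the uninduced arrays (adjusted p = 3.15e-06), and SFTPC, by 0.295 on the log2 scale (adjusted p = 0.0263). The 8 summed to 56.87 and 55.66 on induced arrays and to 53.49 and 53.04 on uninduced arrays. Of 17 blood, fibroblast and endothelial markers, CD3E and TEK were called higher after induction. Beside these lung, blood, fibroblast and endothelial counts, 20.6% of all genes were called higher and 24.6% lower in the same test. The summed level of the 7 blood markers was 44.37 to 45.59 on induced arrays and 44.44 to 45.18 on uninduced arrays. Among these 7, CD68 was bright, at 11.71 to 11.96 over all 4 arrays. The 10 fibroblast and endothelial markers summed to 59.09 and 59.98 on induced arrays and to 58.59 and 59.09 on uninduced arrays. The part of these markers in the results below was not tested. Marker medians were 6.06 log2 units induced and 5.81 uninduced over the 17 genes, and folds of members with levels that low may be compressed.

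Of the 52 members, 13 rose and 18 fell after induction at a Benjamini-Hochberg adjusted p under 0.05 in limma's moderated test fitted over all genes, and 21 did not pass. The 31 calls make 59.6% of the members, beside 45.1% of all genes called in the same fit, 20.6% higher and 24.6% lower. Changes of at least 2-fold were called for 6 members that rose and 4 that fell, where 6.48% and 6.77% of all genes were called so. The levels of the groups did not overlap for 40 of 52 members, against 66.8% of all genes. The median log2 fold change was -0.050 over the members and 0.000 over all genes, and the median absolute log2 fold change was 0.368 over the members and 0.230 over all genes. All 31 called members code for protein, and none of the 3 pseudogene or antisense members passed limma's test, at log2 fold changes from -0.155 to 0.305. SLC25A51P1 had 5.90 and 5.58 log2 units on induced arrays and 5.40 and 5.47 on uninduced arrays. It had an unadjusted p of 0.0354 and was called under median centring and without induced array 2.

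**Figure D1:**
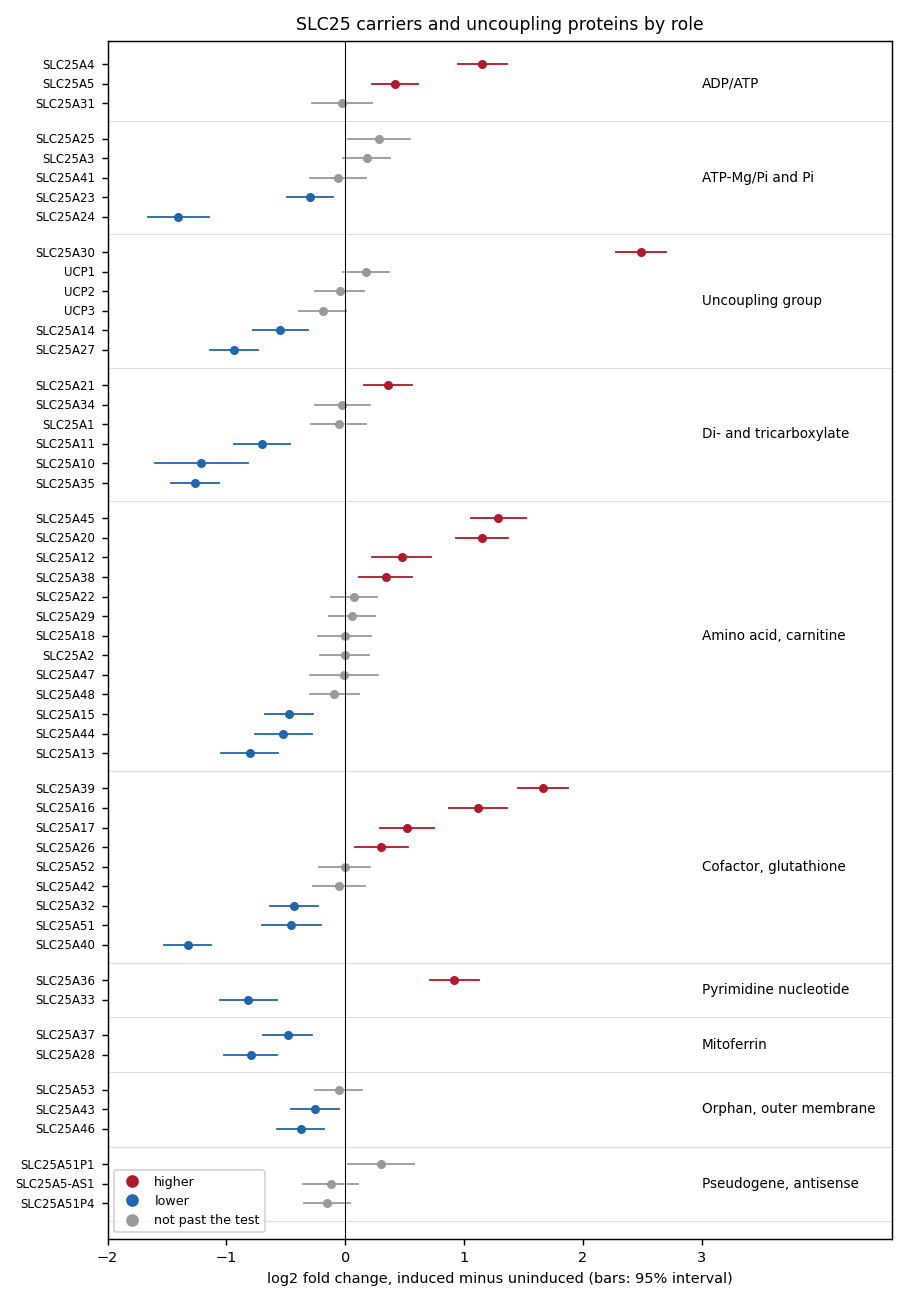
Log2 fold change (induced minus uninduced) of each of the 52 members, ordered within role groups, with limma's 95% interval as a bar and colour for the call at an adjusted p under 0.05. SLC25A30 stands at 2.49 and SLC25A24 at -1.405, and most role groups hold members on both sides of 0.

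Of the 31 calls, 14 were kept whichever array was left out, 7 higher and 7 lower. Without uninduced array 1 the counts were 7 higher and 8 lower, and without uninduced array 2 they were 7 and 10. Without induced array 1 they were 11 and 17, and without induced array 2 they were 11 and 15. The 7 members that rose in every such fit were SLC25A30, SLC25A39, SLC25A45, SLC25A4, SLC25A20, SLC25A16 and SLC25A36. Those that fell in every such fit were SLC25A24, SLC25A40, SLC25A35, SLC25A27, SLC25A33, SLC25A13 and SLC25A28. Over all genes, fewer were likewise called in each direction whichever array was left out, and fewest without an uninduced array. The loss of calls was therefore not confined to the members. How many of all genes kept a call in every such fit was not counted, so the 14 have no share of all genes beside them.

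Promoter sequences are shown for the 3 pairs of carriers of a shared substrate whose members were called in opposite directions, SLC25A39 and SLC25A40 for glutathione, SLC25A12 and SLC25A13 for aspartate and glutamate, and SLC25A36 and SLC25A33 for pyrimidine nucleotides. Each is the 250 bases before the RefSeq start site in GRCh38.p14, 5′ to 3′ on the gene's strand, in lower case with matches to the motifs CATG, CCAAT and TTTGAA (either strand) in capitals. CATG is the core of many p53 sites, CCAAT is bound by NF-Y and TTTGAA is a form of the cell cycle homology region.
SLC25A39, chr17:44324824-44325073, minus strand: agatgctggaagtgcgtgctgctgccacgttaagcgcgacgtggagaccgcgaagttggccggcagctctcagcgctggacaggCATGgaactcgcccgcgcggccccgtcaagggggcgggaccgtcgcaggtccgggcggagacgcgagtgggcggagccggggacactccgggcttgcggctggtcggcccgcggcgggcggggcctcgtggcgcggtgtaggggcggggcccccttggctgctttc
SLC25A40, chr7:87876361-87876610, minus strand: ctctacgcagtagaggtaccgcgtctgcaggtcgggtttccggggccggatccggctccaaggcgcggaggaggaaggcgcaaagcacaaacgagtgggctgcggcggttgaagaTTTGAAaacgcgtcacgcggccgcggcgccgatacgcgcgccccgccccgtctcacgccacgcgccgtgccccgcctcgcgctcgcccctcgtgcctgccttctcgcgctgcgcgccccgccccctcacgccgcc
SLC25A12, chr2:171894245-171894494, minus strand: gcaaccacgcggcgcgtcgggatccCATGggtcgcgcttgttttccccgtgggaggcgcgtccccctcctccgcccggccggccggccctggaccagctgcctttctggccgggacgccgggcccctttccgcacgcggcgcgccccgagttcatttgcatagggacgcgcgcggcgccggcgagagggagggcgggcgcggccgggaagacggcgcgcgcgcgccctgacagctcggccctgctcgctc
SLC25A13, chr7:96322099-96322348, minus strand: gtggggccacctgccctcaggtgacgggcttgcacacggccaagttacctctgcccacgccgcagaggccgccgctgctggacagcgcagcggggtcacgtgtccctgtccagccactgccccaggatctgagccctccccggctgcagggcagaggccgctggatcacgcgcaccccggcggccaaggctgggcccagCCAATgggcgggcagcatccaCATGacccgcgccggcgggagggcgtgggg
SLC25A36, chr3:140941586-140941835, plus strand: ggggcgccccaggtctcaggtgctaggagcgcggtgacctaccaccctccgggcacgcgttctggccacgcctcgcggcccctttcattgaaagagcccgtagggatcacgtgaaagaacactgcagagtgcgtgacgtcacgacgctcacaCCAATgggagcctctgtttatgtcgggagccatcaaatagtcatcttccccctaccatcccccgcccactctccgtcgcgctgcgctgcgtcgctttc
SLC25A33, chr1:9539215-9539464, plus strand: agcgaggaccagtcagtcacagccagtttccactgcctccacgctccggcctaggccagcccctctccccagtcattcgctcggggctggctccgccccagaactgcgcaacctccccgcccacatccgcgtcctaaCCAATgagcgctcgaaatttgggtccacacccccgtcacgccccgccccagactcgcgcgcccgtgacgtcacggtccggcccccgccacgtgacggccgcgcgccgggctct

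Promoter windows of 250 bases before the start site were found for 43 of the 52 members. None was found for SLC25A30 and SLC25A16, which rose, or for SLC25A35, SLC25A32 and SLC25A37, which fell, so these were not searched. The p53 consensus decamer, searched on both strands, was found in 1 of the 43, SLC25A25 on chromosome 9, where the letters AGGCTTGTCT lie 33 to 24 bases before the start site. It was found in 5.1% of the windows of the 14237 tested genes that have them, and in 0 of 11 windows of members that rose and 0 of 15 of members that fell. CATG, which can also lie inside that decamer, was present in 4 of 11 windows of members that rose and 8 of 15 of those that fell. It was present in 2 of 17 windows of members that did not pass and in 40.5% of the tested genes' windows. In the same order, CCAAT was present in 4 of 11, 6 of 15, 8 of 17 and 34.4%. TTTGAA was present in 1 of 11, 4 of 15, 1 of 17 and 10.6%. In the sequences above, SLC25A36, which rose, and SLC25A33, which fell, each hold a CCAAT match. SLC25A13, which fell, holds a CCAAT match and SLC25A12, which rose, holds none. Only SLC25A40 of the 6 holds TTTGAA. The 43 windows ranged from 37.6% to 82.0% GC, with a median of 66.0%. These matches describe the letters in the windows and were not tested against the expression values.

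ADP/ATP carriers exchange matrix ATP for cytosolic ADP. Of 3 measured, 2 rose and SLC25A31 did not pass, where 20.6% of all genes rose and 24.6% fell. SLC25A4, the isoform of heart and muscle also called ANT1, had levels of 10.18 and 10.19 log2 units on the induced arrays, against 9.10 and 8.96 on the uninduced arrays. It rose 2.23-fold (log2 fold change 1.155, SE 0.089, adjusted p = 3.2e-05 in limma's test). SLC25A5, the ANT2 isoform of growing cells, had 12.51 and 12.44 when induced and 12.05 and 12.06 when uninduced. Its groups did not overlap, and it rose 1.34-fold (SE 0.083 on the log2 scale, adjusted p = 0.00414), but the adjusted p was 0.0719 without uninduced array 1 and 0.0697 without uninduced array 2. The transcripts of SLC25A5 have many near-identical processed copies in the genome, so its probes may read more than this gene. SLC25A31, the testis isoform, had 4.81 and 5.05 on induced arrays and 5.01 and 4.90 on uninduced arrays, with overlapping groups. The antisense neighbour SLC25A5-AS1 differed by -0.12 on the log2 scale (SE 0.099, adjusted p = 0.392).

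Among the carriers of phosphate and of ATP-Mg against phosphate, 2 of 5 fell and 0 rose at an adjusted p under 0.05. Of all genes, 24.6% fell and 20.6% rose. The unadjusted p in limma's test was under 0.05 for SLC25A25, which is higher. SLC25A24, a calcium-regulated ATP-Mg carrier, had 7.11 and 7.37 log2 units on the induced arrays, against 8.59 and 8.70 on the uninduced arrays. It had the largest fall of the family, with a log2 fold change of -1.405 (SE 0.11 and adjusted p = 3.5e-05 in limma's test). Its relative SLC25A23 fell by 0.295 (SE 0.081, adjusted p = 0.0199), and this call was lost without induced array 2 (0.0538), without uninduced array 1 (0.137) and without uninduced array 2 (0.114), and after quantile normalization again (0.0527). SLC25A25, the third calcium-regulated relative, had 7.45 and 7.70 on the induced arrays, against 7.37 and 7.21 on the uninduced arrays. Its log2 fold change of 0.285 (SE 0.11, adjusted p = 0.0784) passed the test under median centring (adjusted p = 0.0387) and without dim genes (0.0396). SLC25A41, a relative without the calcium-binding part, had a log2 fold change of -0.060. SLC25A3, the carrier that supplies phosphate for ATP synthesis, had 11.87 and 11.95 on induced arrays and 11.75 and 11.71 on uninduced arrays, a difference of 0.18 log2 units (SE 0.084, adjusted p = 0.13), and passed after quantile normalization again (0.0432) and when the prior followed intensity (0.00266).

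The uncoupling proteins and their close relatives split. UCP1, UCP2 and UCP3 did not pass the test, SLC25A30 rose, and SLC25A14 and SLC25A27 fell. In the same fit 20.6% of all genes rose and 24.6% fell. SLC25A30, known as kidney mitochondrial carrier protein, had 9.08 and 9.10 log2 units on the induced arrays, against 6.53 and 6.67 on the uninduced arrays. This is the largest change in the family, 5.62-fold (log2 fold change 2.49, SE 0.089, adjusted p = 1.2e-06 in limma's test), with the groups far apart. SLC25A27, also called UCP4 and known from brain, had 7.45 and 7.40 when induced and 8.41 and 8.31 when uninduced, and fell by 0.935 (SE 0.086, adjusted p = 7.8e-05). SLC25A14, also called UCP5, had 7.04 and 7.18 when induced and 7.73 and 7.58 when uninduced, and fell by 0.545 (SE 0.097, adjusted p = 0.00248). The SLC25A14 call was lost without induced array 1 (adjusted p = 0.0594) and without uninduced array 1 (0.0756). The 3 relatives numbered within SLC25 therefore did not move together.

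UCP1, the uncoupler of brown fat, had 5.57 and 5.52 log2 units on the induced arrays, against 5.36 and 5.38 on the uninduced arrays, a log2 fold change of 0.175 (95% interval -0.017 to 0.37). UCP2, the broadly expressed member, had 8.98 and 9.09 when induced and 9.04 and 9.12 when uninduced, and the groups overlapped (log2 fold change -0.045, 95% interval -0.25 to 0.16). UCP3, the muscle form, had 7.16 and 7.06 when induced and 7.31 and 7.29 when uninduced (log2 fold change -0.19, 95% interval -0.39 to 0.0098). Of 8 brown fat and muscle markers, 0 passed limma's test and 0 had an unadjusted p under 0.05. Their log2 fold changes lay between -0.075 and 0.17, and 45.1% of all genes passed the same test.

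Carriers of di- and tricarboxylates link the citric acid cycle with the cytosol. Of 6 measured, 3 fell and 1 rose, where 24.6% of all genes fell and 20.6% rose. SLC25A35, a relative without a settled substrate, had 6.36 and 6.37 log2 units on the induced arrays, against 7.58 and 7.68 on the uninduced arrays, and fell by 1.265 (SE 0.085, adjusted p = 1.7e-05 in limma's test). SLC25A10, the dicarboxylate carrier, had 7.72 and 7.18 when induced and 8.73 and 8.59 when uninduced. The induced arrays of SLC25A10 lay further apart than those of any other member (SD 0.38), both below the uninduced ones, and it fell by 1.21 (SE 0.17, adjusted p = 0.000669). Its adjusted p was 0.0752 without uninduced array 1 and 0.0611 without uninduced array 2. SLC25A11, the exchanger of 2-oxoglutarate for malate, had 9.37 and 9.57 when induced and 10.21 and 10.13 when uninduced, and fell by 0.70 (SE 0.099, adjusted p = 0.000731), or 0.0531 for the adjusted p without uninduced array 1. SLC25A1, the citrate carrier, had 9.84 and 9.77 when induced and 9.96 and 9.76 when uninduced, with overlapping groups and a log2 fold change of -0.055 (95% interval -0.29 to 0.18). SLC25A34, the nearest relative of SLC25A35, differed by -0.025 on the log2 scale (SE 0.098), with overlapping groups. SLC25A21, a carrier of oxodicarboxylates from amino acid breakdown, rose 1.28-fold (adjusted p = 0.0108), a call lost without either uninduced array (adjusted p = 0.116 in each case).

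**Figure D2:**
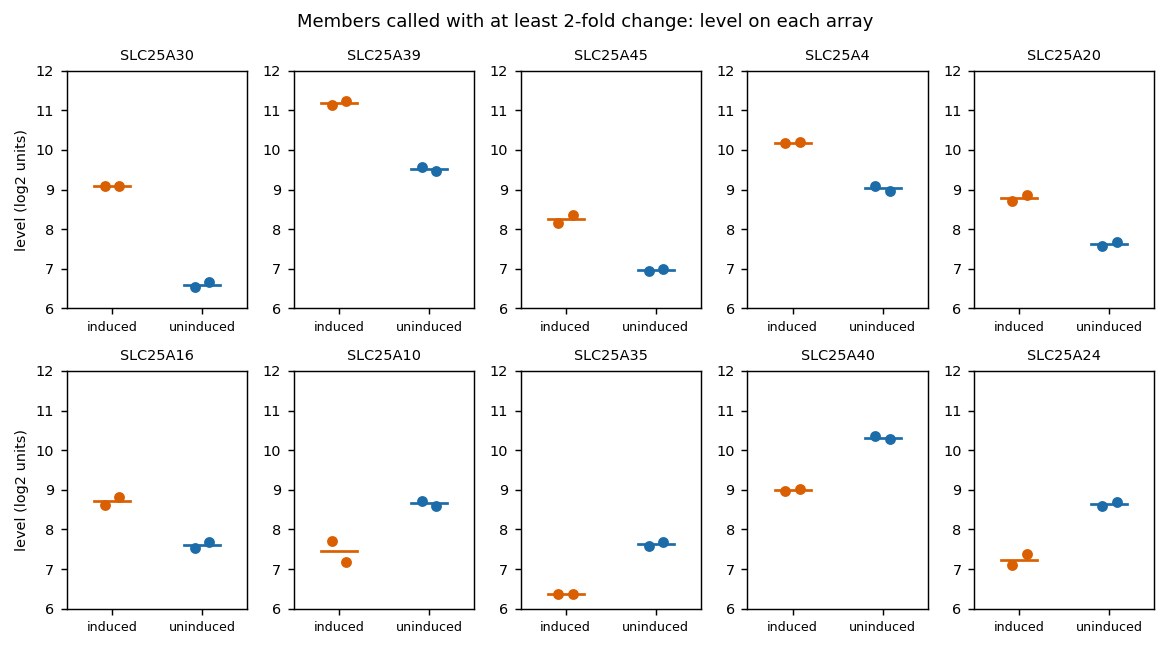
Level in log2 units on each array (points) and group mean (line) for the 10 members called with at least a 2-fold change, 6 higher and 4 lower, all panels on the same scale from 6 to 12. No panel shows overlap between groups, and SLC25A10 has the widest gap between its induced arrays, 7.72 and 7.18.

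Among 13 carriers of amino acids, carnitine and relatives, 4 rose, 3 fell and 6 did not pass. Of all genes, 20.6% rose and 24.6% fell. SLC25A45, a relative grouped with this set, had 8.15 and 8.36 log2 units on the induced arrays, against 6.94 and 6.99 on the uninduced arrays, and rose 2.45-fold (SE 0.099 on the log2 scale, adjusted p = 3.2e-05 in limma's test). SLC25A20, which brings acylcarnitines into the matrix for fatty acid oxidation, had 8.70 and 8.85 when induced and 7.58 and 7.67 when uninduced. It rose 2.22-fold (SE 0.093 on the log2 scale, adjusted p = 4.1e-05). SLC25A38, the glycine carrier of heme synthesis, rose 1.27-fold (adjusted p = 0.0206), a call lost without any of the 4 arrays in turn (adjusted p from 0.0813 to 0.196).

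The aspartate/glutamate carriers of the malate-aspartate shuttle were called in opposite directions. SLC25A12, the form of brain and muscle, had 9.44 and 9.62 log2 units on the induced arrays, against 8.96 and 9.15 on the uninduced arrays. SLC25A13, citrin, had 9.99 and 10.22 when induced and 10.87 and 10.95 when uninduced. SLC25A12 rose 1.39-fold (log2 fold change 0.475, SE 0.11, adjusted p = 0.00762 in limma's test) and SLC25A13 fell by 0.805 (SE 0.10, adjusted p = 0.000441). The rise of SLC25A12 was lost when any array was left out, with adjusted p-values from 0.0596 to 0.138, while the fall of SLC25A13 was kept in each of these fits.

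SLC25A44, a carrier of branched-chain amino acids, had 8.59 and 8.41 log2 units on the induced arrays, against 8.94 and 9.10 on the uninduced arrays, and fell by 0.52 (SE 0.10, adjusted p = 0.00417 in limma's test). SLC25A15, the ornithine carrier of the urea cycle, had 7.60 and 7.64 when induced and 8.04 and 8.14 when uninduced, and fell by 0.47 (SE 0.085, adjusted p = 0.00275). Both calls were lost in some fits that left out an array, with log2 fold changes of -0.43 to -0.61 for SLC25A44 and -0.42 to -0.52 for SLC25A15 over all such fits. That of SLC25A44 was lost without induced array 2 (adjusted p = 0.0741), without uninduced array 1 (0.0576) and without uninduced array 2 (0.106), and that of SLC25A15 without uninduced array 2 (0.0659). The 6 others of the group, the glutamate carriers SLC25A22 and SLC25A18, the basic amino acid carrier SLC25A29, the ornithine carrier SLC25A2, and SLC25A47 and SLC25A48, had log2 fold changes between -0.09 and 0.075.

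Of 9 carriers of cofactors and glutathione, 4 rose and 3 fell, where 45.1% of all genes were called in either direction. Of the 7 calls, those of SLC25A39, SLC25A40 and SLC25A16 were kept whichever array was left out. SLC25A39, a glutathione importer of the inner membrane, had 11.13 and 11.23 log2 units on the induced arrays, against 9.56 and 9.47 on the uninduced arrays. SLC25A40, its close relative for the same substrate, had 8.96 and 9.02 when induced and 10.35 and 10.28 when uninduced. SLC25A39 rose 3.17-fold (log2 fold change 1.665, SE 0.088, adjusted p = 5.5e-06 in limma's test), and SLC25A40 fell by 1.325 (SE 0.084, adjusted p = 1.3e-05). The difference between the log2 fold changes was 2.99, the widest among the 10 pairs compared below, and neither call was lost under any alternative tried.

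SLC25A16, linked to coenzyme A supply, had 8.63 and 8.83 log2 units on the induced arrays, against 7.54 and 7.68 on the uninduced arrays, and rose 2.17-fold (SE 0.10 on the log2 scale, adjusted p = 8.0e-05 in limma's test). SLC25A17, which works in peroxisomes, had 9.54 and 9.74 when induced and 9.13 and 9.11 when uninduced, and rose 1.43-fold (adjusted p = 0.00306). SLC25A42, a coenzyme A carrier of mitochondria, had a log2 fold change of -0.055 (SE 0.093). The SLC25A17 call was lost without uninduced array 1 (adjusted p = 0.0811) and without uninduced array 2 (0.0882). SLC25A26, which imports S-adenosylmethionine, rose 1.24-fold (adjusted p = 0.0336), and this was lost without induced array 2 (0.0852), uninduced array 1 (0.224) or uninduced array 2 (0.205).

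SLC25A32, the folate and flavin carrier, had 10.49 and 10.59 log2 units on the induced arrays, against 10.96 and 10.98 on the uninduced arrays, and fell by 0.43 (SE 0.085, adjusted p = 0.0042 in limma's test). SLC25A51, an NAD importer, had 7.94 and 8.20 when induced and 8.53 and 8.52 when uninduced, and fell by 0.455 (SE 0.11, adjusted p = 0.00928). Its near-identical copy SLC25A52 had 3.77 and 3.81 when induced and 3.88 and 3.71 when uninduced, and probes of these genes and of the pseudogenes SLC25A51P1 and SLC25A51P4 may read each other's transcripts. Both falls were lost without an uninduced array, at adjusted p-values of 0.0719 and 0.0795 for SLC25A32 and 0.148 and 0.144 for SLC25A51.

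The pyrimidine nucleotide carriers, which supply the matrix with building blocks for mitochondrial DNA and RNA, also parted. SLC25A36 had 10.10 and 10.22 log2 units on the induced arrays, against 9.22 and 9.26 on the uninduced arrays, and rose 1.89-fold (log2 fold change 0.92, SE 0.087, adjusted p = 9.1e-05 in limma's test). SLC25A33 had 7.36 and 7.59 when induced and 8.28 and 8.30 when uninduced, and fell by 0.815 (SE 0.10, adjusted p = 0.000371). Neither gene's groups overlapped, and both calls were kept whichever array was left out.

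The mitoferrins, which bring iron into the matrix for heme and iron-sulfur clusters, both fell. SLC25A28, mitoferrin-2, had 7.60 and 7.43 log2 units on the induced arrays, against 8.26 and 8.36 on the uninduced arrays, and fell by 0.795 (SE 0.096, adjusted p = 0.000323 in limma's test). SLC25A37, mitoferrin-1, known for its part in red cell precursors, had 9.24 and 9.33 when induced and 9.81 and 9.73 when uninduced, and fell by 0.485 (SE 0.087, adjusted p = 0.00251), with an adjusted p of 0.0676 without uninduced array 1. Of the remaining members, SLC25A46, an outer membrane protein of mitochondrial dynamics, had 9.18 and 9.26 when induced and 9.62 and 9.57 when uninduced, and fell by 0.375 (SE 0.084, adjusted p = 0.0079) and SLC25A43 fell by 0.255 (SE 0.087, adjusted p = 0.0468), while SLC25A53 had a log2 fold change of -0.055. The SLC25A46 call was lost without uninduced array 1 (adjusted p = 0.104) or uninduced array 2 (0.0809). That of SLC25A43 was lost without induced array 2 (0.0935), uninduced array 1 (0.22) or uninduced array 2 (0.21), and after quantile normalization again (0.146) or median centring (0.0924).

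Carriers that share a substrate or a close relation were set side by side in 10 pairs, chosen with their values known. In 3 pairs the members were called in opposite directions and in 2 in the same direction. In 3 a single member was called and in 2 neither was. Over all genes 20.6% were called higher and 24.6% lower, and opposite calls in pairs of unrelated genes were not counted. Other pairings were possible, such as SLC25A24 with SLC25A23, both called lower, or SLC25A35 with SLC25A34, of which SLC25A34 did not pass. The counts therefore depend on the pairs chosen. The 95% intervals of the log2 fold changes lay apart in 6 of the 10 pairs. For SLC25A36 and SLC25A33 the difference of log2 fold changes was 1.735, and for SLC25A12 and SLC25A13 it was 1.28. SLC25A4 and SLC25A5 both rose but differed by 0.735, and SLC25A37 and SLC25A28 both fell and differed by 0.31, with overlapping intervals. With 4 arrays the exact permutation test of such a difference cannot go below a two-sided p of 0.333, the value reached in 8 of the 10 pairs (0.417 after adjustment over the 10), so it could not pass a threshold of 0.05 in any pair.

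**Figure D3:**
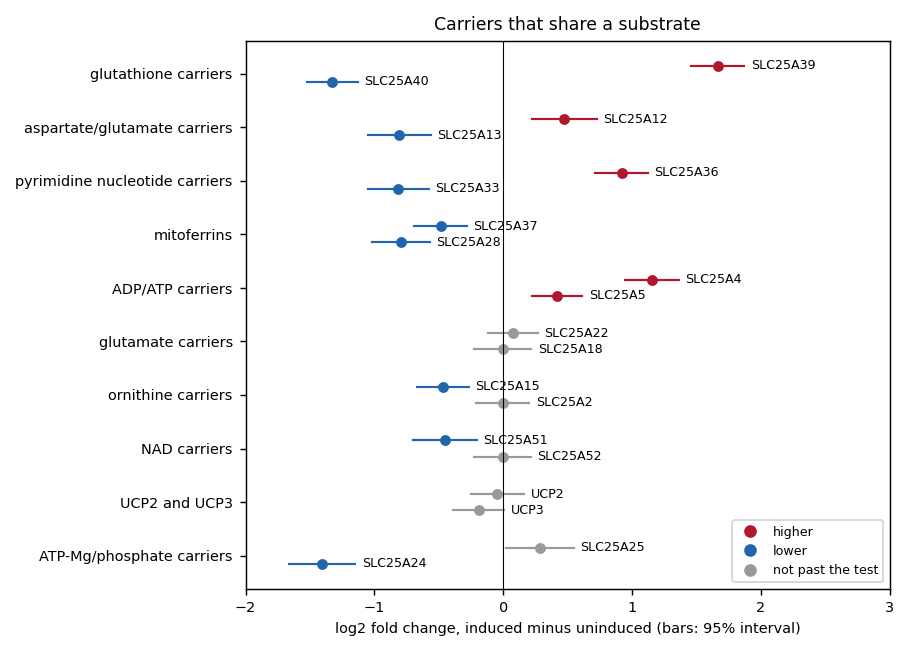
Log2 fold change (induced minus uninduced) with limma's 95% interval for the members of 10 pairs of carriers that share a substrate or a close relation, coloured by call. SLC25A39 and SLC25A40 are furthest apart, at 1.665 and -1.325, and the mitoferrins lie together below 0.

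The machinery that imports and inserts carriers was read from a list of TOM, small TIM and TIM22 genes. Of 13 measured, 9 fell and 2 rose, where 24.6% of all genes fell and 20.6% rose. TIMM10, the intermembrane space chaperone subunit that hands carriers to TIM22, had 7.55 and 7.63 log2 units on the induced arrays, against 8.97 and 8.92 on the uninduced arrays, and fell by 1.355 (adjusted p = 1.2e-05 in limma's test). TOMM40, the outer membrane pore, fell by 0.805 and TIMM13, another small chaperone, fell by 0.64. The members that rose were TIMM22, the insertion channel itself, at 1.30-fold, and TIMM8B at 1.28-fold. The count of falls was 5 without induced array 1, 2 without uninduced array 1 and 3 without uninduced array 2, and that of rises was 0 without either uninduced array. In the same fits 20.3%, 14.5% and 14.4% of all genes fell.

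Among 15 outer membrane channels and other mitochondrial carriers, 5 fell, 3 rose and 7 did not pass. Of all genes, 24.6% fell and 20.6% rose. SFXN4, a sideroflexin, had 7.78 and 7.83 log2 units on the induced arrays, against 9.32 and 9.26 on the uninduced arrays, and fell by 1.485. Both subunit genes of the mitochondrial pyruvate carrier, which lies outside SLC25, fell, MPC1 by a log2 fold change of -0.79 and MPC2 by one of -0.765. The outer membrane channel gene VDAC3 rose 1.83-fold. Fewer rises were called in this list when either uninduced array was left out, as was the case over all genes. Of 11 factors of mitochondrial biogenesis, coactivators included, 7 fell and 0 rose in limma's test, the falls reaching 2-fold for 5. Over all genes 24.6% fell and 6.77% were at least 2-fold lower. Among these factors ESRRA had an unadjusted p of 0.0366 and was higher. PPRC1, a coactivator related to PGC-1, had 7.59 and 7.56 when induced and 9.33 and 9.22 when uninduced and fell by 1.70. TFB1M fell by 1.47 and TFAM, the packaging factor of mitochondrial DNA, fell by 1.21. The median log2 fold change was -0.395 in the import list, -0.125 in the channel list and -0.715 among the factors, beside -0.050 over the members.

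**Figure D4:**
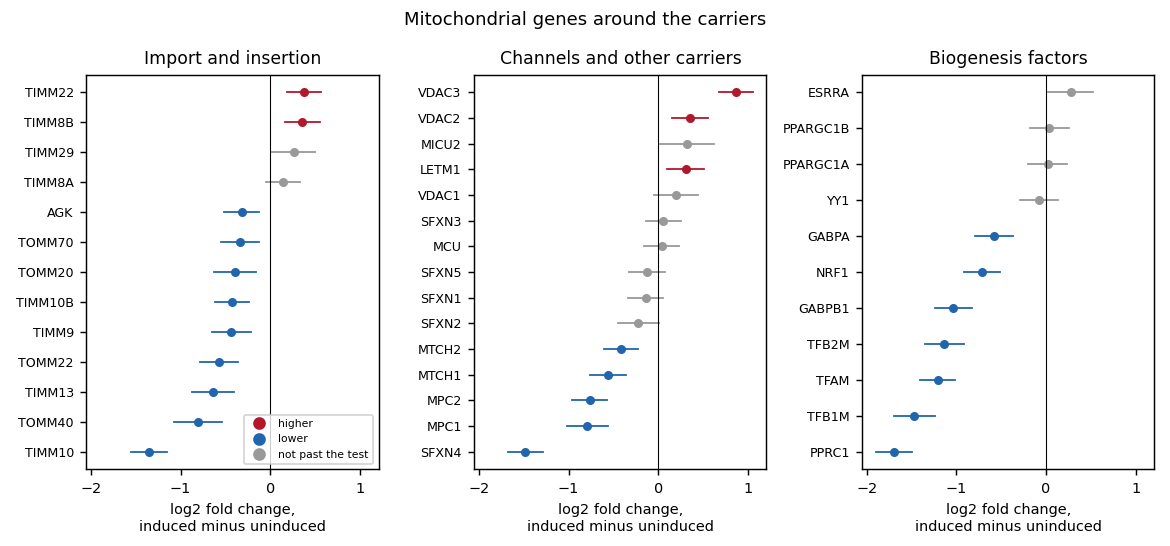
Log2 fold change (induced minus uninduced) with limma's 95% interval for genes of carrier import, of channels and other mitochondrial carriers, and of mitochondrial biogenesis, coloured by call. Of the import genes 9 of 13, and of the biogenesis factors 7 of 11, were called lower, with PPRC1 lowest at -1.70.

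All arrays came from bulk RNA, in which fewer cells of a type and less RNA per cell cannot be told apart. The deposited values were made comparable between arrays by the authors, so the changes are relative to the other transcripts. Quantile normalization again shifted all genes by a median of 0.035 and median centring by 0.050 on the log2 scale, and no called member changed direction under either.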

How the data were processed

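For the 4 arrays, total RNA was labelled as biotinylated single-stranded cDNA and read on an Affymetrix platform. Per the submitters' processing notes, the values were made with Affymetrix Expression Console and RMA, and the authors deposited log2 expression levels per probe set, with array medians of 7.26 to 7.33. Versions, settings and genome build were not given in the sources used here. RMA equalises the arrays' intensity distributions, so a shift common to every transcript would not show.

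Groups came from the sample titles. Of 33297 rows, those with a single symbol in the annotation were used, and the brightest probe set stood for each gene. limma 3.58.1 in R 4.3.3 (lmFit, eBayes, no covariate, two-sided, 2 residual and 7.2 total degrees of freedom) was fitted over all 18417 genes with Benjamini-Hochberg adjustment and tested on simulated data. Intervals are limma's 95% intervals, unadjusted. Levels are not compared between genes.

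Values on each array were given for the 25 called members with the largest change, all ADP/ATP carriers, uncoupling proteins and mitoferrins, and the most changed member of each other role group. For the mitochondrial lists the 3 most changed genes were to be named; TIMM22, TIMM8B, MPC2 and ESRRA were also named after their values were seen. Members, lists and pairs were chosen with earlier results of these data known. Promoter windows came from RefSeq (GRCh38.p14), matched by gene ID. Alternatives were quantile normalization again, median centring, a filter on dim genes, mean probe sets, all rows, limma's treat, a robust prior with an intensity trend, the replicate number as a block and leaving out each array. Figures used Python 3.11.15 and matplotlib 3.10.9.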

Additional observations from a re-analysis of the deposited data

Results flagged for a closer look

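Second probe sets exist for 3 members and were not used in the comparison above. On the induced arrays that of SLC25A33 had 7.03 and 7.28 log2 units, against 7.93 and 8.05 on the uninduced arrays, a log2 fold change of -0.835 (adjusted p = 0.00513 in limma's test over all rows). That of SLC25A37 had 7.75 and 8.02 when induced and 8.58 and 8.69 when uninduced, a log2 fold change of -0.75 (adjusted p = 0.0081). That of SLC25A51 had 6.59 and 6.87 when induced and 7.13 and 7.20 when uninduced, a log2 fold change of -0.435 (adjusted p = 0.0478). They drew attention because each differed between the groups in rows outside the comparison. The probe sets used for these genes gave -0.815, -0.485 and -0.455, the same direction in each case.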

How the results depend on the processing

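Across 612 values of single members under the alternatives, 543 kept their side of the threshold, 63 lost a call, 6 gained one and none of the called values changed direction. The lost calls belonged to 17 members and the gained ones to 3. With limma's treat against a fold of 1.2, 7 members were higher and 10 lower, and over all genes 2502 and 2977. Leaving out 1 array in turn gave 7 to 11 members higher and 8 to 17 lower, and 2316 to 3119 genes higher and 2643 to 3785 lower. Members at least 2-fold higher numbered 6 in every alternative run for that count, those at least 2-fold lower 3 or 4, and the median over members lay between -0.090 and 0.000. The filter on dim genes left 40 members, SLC25A35 not among them. The share of higher among the members' calls was 41.9% as deposited, 46.7% after quantile normalization again and 46.9% after median centring. In the mitochondrial lists, examined under these alternatives after the data were seen, treat gave 0 import genes higher and 4 lower and 1 channel gene higher. Leaving out 1 array gave 0 to 3 import genes higher, 2 to 7 lower, 1 to 3 channel genes higher and 0 to 1 biogenesis factors higher. The biogenesis count higher was 1 after quantile normalization again, with median centring, without dim genes and with the intensity trend, which also gave 5 channel genes higher. With the replicate number as a block, 11 members were higher and 16 lower. The calls of SLC25A26, SLC25A38, SLC25A43 and SLC25A44 were lost there (adjusted p from 0.0502 to 0.0791). Deviations of same-numbered arrays correlated at 0.225 over genes, and the labels do not say that the numbers pair the arrays. The cause of these differences was not tested. No detection call was used, so the lower limit of measurement is not known.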
